A study of Mus musculus with 4 samples.

Results

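The EF-hand calcium-binding proteins that serve as marker antigens of retinal interneurons were followed through 10 genes, Cabp1, Cabp2, Cabp5, Calb1, Calb2, Pvalb, Scgn, Necab1, Necab2 and Hpca. Members were taken by gene symbol, as all probe sets of the deposited table that the platform annotation gives to exactly 1 gene with such a symbol. This gave 16 probe sets out of 34945 with a single gene, and the 10 genes out of 18193. The cells were neurons of mice of Mixed C57Bl6 x CD1 strain at postnatal day 6, the offspring of males with the MP transgene and females without it, so every sorted cell of both groups carried the transgene and its CFP reporter. MP amacrine cells were CFP+VC1.1+ cells, and MP bipolar cells were CFP+VC1.1– cells collected after the VC1.1+ cells had been depleted. There were 2 biological replicates of each, from different litters and of about 1000 cells each, and 1 Affymetrix array per replicate. The labels do not give the promoter that drives the transgene. Each group is the part of its class that shows CFP and was sorted on VC1.1, not the whole class.

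An EF hand is a helix-loop-helix fold whose loop holds a calcium ion. Some members of the superfamily, such as calbindin, calretinin and parvalbumin, are thought of mainly as buffers, while others, such as the CaBPs and hippocalcin, change shape on binding calcium and act on channels, enzymes or membranes. In the retina their antibodies are used to tell interneuron types apart. Calretinin and calbindin label sets of amacrine cells, calbindin also labels horizontal cells, and CaBP5 and secretagogin label sets of bipolar cells.

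The arrays had median intensities between 44.5 and 47.2. The second amacrine array differed from the rest in its Gapdh controls, whose log2 signal fell off by 3.21 from the 3-prime to the 5-prime probe set, where the remaining arrays had 1.78 to 2.0. Of 9 amacrine marker genes that were tested, 8 were called toward amacrine cells (Gad2 was not), and of 6 bipolar marker genes other than Cabp5, 5 were called toward bipolar cells (Prkca was not). The amacrine markers summed to 7029 and 6883 in the amacrine samples and to 623 and 782 in the bipolar samples. Markers of rods, a cell type neither sort aimed at, were bright throughout, with sums from 9123 to 13944 over 7 genes. Markers of Müller glia summed to 4552 and 4190 in amacrine and to 2168 and 2687 in bipolar samples, and 3 of 7 tested, Vim, Slc1a3 and Dkk3, were called toward amacrine cells, as were Necab1, Hpca and Calb2. Their part in the values of these members was not tested. For members, results are given with and without MP amacrine replicate 2 where its omission mattered. Related genes are not given singly without it.

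Most of the set divided between the cell classes. Scgn, Cabp5, Cabp2 and Cabp1 were higher in MP bipolar cells, and Necab1, Hpca and Calb2 were higher in MP amacrine cells. Pvalb and Necab2 had overlapping values in the groups and were not called, and Calb1 was bright on a single amacrine array and was too dim on the others to be tested. Of the 10 genes, 9 passed the filter on dim values, which asked that 2 or more arrays exceed their own median, and 7 of these were called at an adjusted p under 0.05 (limma with Benjamini-Hochberg adjustment over 11583 genes), 3 toward amacrine and 4 toward bipolar cells. Over all tested genes 13.5% were called, 6.54% as higher in amacrine and 6.92% as higher in bipolar cells. Cabp2, Calb2 and Hpca passed the filter through the group in which they were high, so their difference was partly built into that step and the count of 7 is a description only. The groups did not overlap for those 7 and for Calb1, as for 53.3% of all tested genes. Among the 16 probe sets, 10 passed the filter and were tested singly, and 7 were called, 3 toward amacrine and 4 toward bipolar cells. Of all 19168 tested probe sets 10.2% were called, 5.04% and 5.19% by direction. The 2nd Cabp5 probe set also passed through the group in which it was high, so this count of 7 is likewise a description only. The groups were apart for 9 of the 16, among them the untested Calb1 probe set 1417504_at. They were apart for 51.8% of all probe sets that passed the filter. Fold changes are differences of log2(intensity + 16), MP amacrine minus MP bipolar, which understates the differences of dim genes. In these bulk samples, fewer cells of a type and less RNA per cell cannot be told apart.

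**Figure D1:**
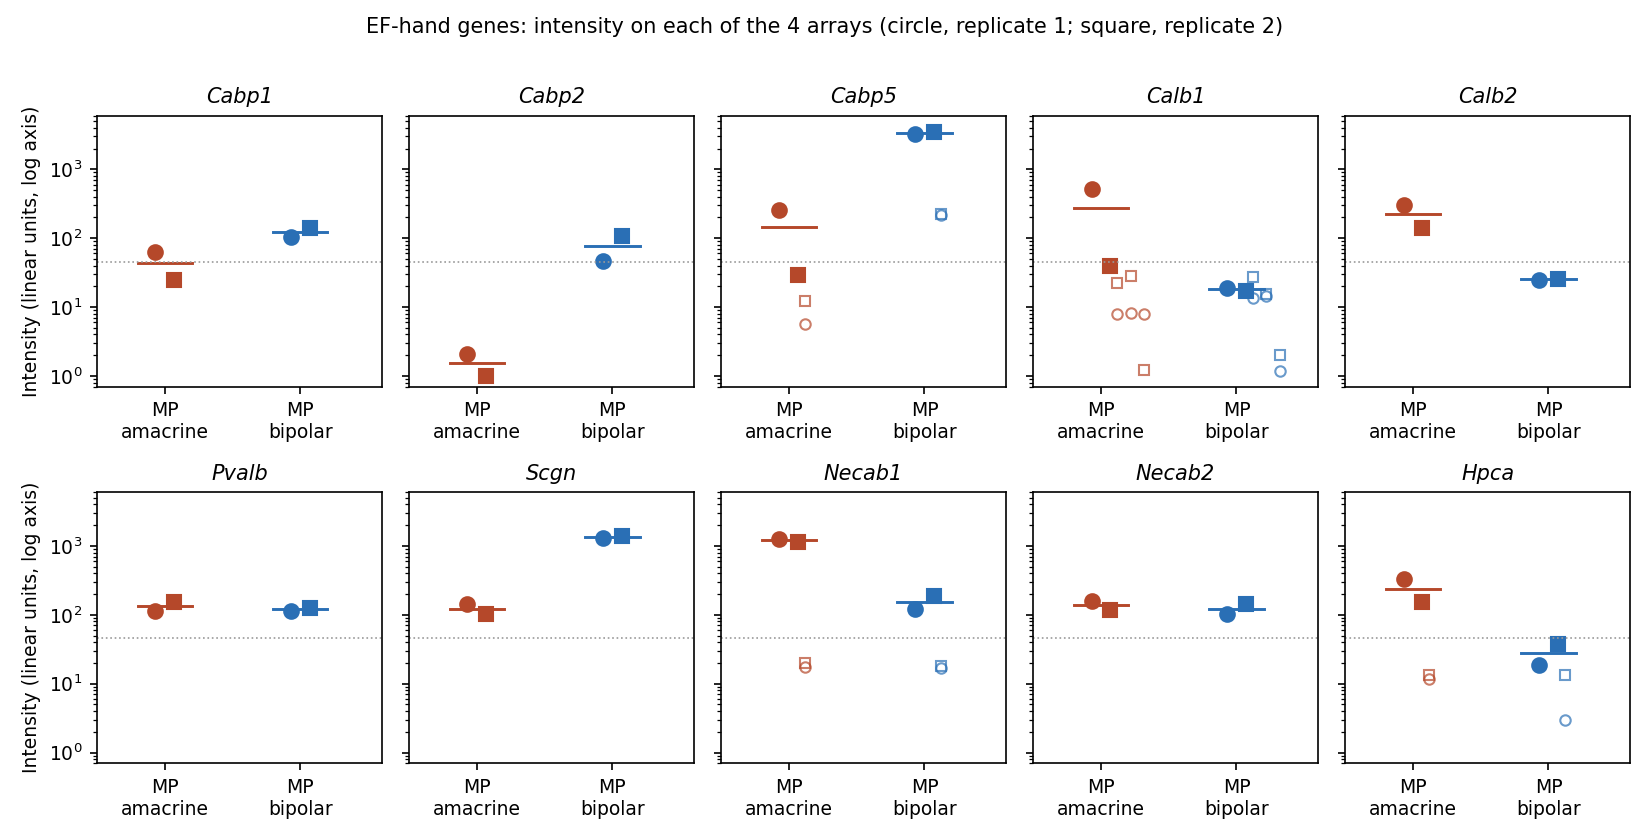
Intensity of every member probe set (log axis) on the MP amacrine arrays (red) and the MP bipolar arrays (blue), with circles for replicate 1 and squares for replicate 2. Filled symbols are the brightest probe set of a gene and bars its group mean, open symbols are its other probe sets, and the dotted line is the mean of the 4 array medians. Scgn and Cabp5 lie far higher in bipolar cells, Necab1, Calb2 and Hpca in amacrine cells, and the 2 amacrine arrays stand far apart for Calb1 and Cabp5.

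The CaBPs are calmodulin-like proteins of neurons. Cabp5 encodes CaBP5, a protein found in rod bipolar cells and in some cone bipolar types. Its brightest probe set, 1451826_at, read 259 and 29.4 in the amacrine samples and 3251 and 3428 in the bipolar samples. The bipolar arrays nearly coincided and lay above both amacrine arrays, which differed 8.81-fold from each other. The group means were 144 ± 163 and 3340 ± 125 (SD, n = 2), a bipolar to amacrine ratio of 23.1. In limma the log2 fold change was -4.91 (adjusted p = 0.00238, SE 0.69). The 2nd Cabp5 probe set, 1421780_a_at, read 5.72 and 12.4 against 220 and 223, so it was again far higher in bipolar cells. Its log2 fold change was -3.26 (adjusted p = 3.27e-04, limma over all probe sets). It passed the filter through its bipolar arrays alone, so its difference was partly built into that step. Without the filter it was also called (adjusted p = 0.0157, limma). On that probe set it was amacrine replicate 2 that had the higher of the amacrine values. The size of the Cabp5 difference therefore depended on the amacrine array, with -6.21 without MP amacrine replicate 1 and -3.61 without MP amacrine replicate 2. Over all alternatives of the test by gene the adjusted p (limma) lay between 3.22e-10, with the replicate number as a block, and 0.0605, without the filter. The 7 other bipolar markers on the array summed to 2515 and 2490 in amacrine and to 9762 and 10074 in bipolar samples, with most of the amacrine sum from Otx2 (1523 and 1646) and Prkca (490 and 478). Vsx1 (154 and 67.7), Fezf2 (38.9 and 24.1) and Car10 (185 and 137) were, like the brightest Cabp5 probe set, higher on amacrine replicate 1. Lrtm1 (101 and 110), Trpm1 (22.4 and 26.7) and Otx2 were higher on amacrine replicate 2, and Prkca was nearly equal. The part of bipolar RNA in the amacrine values was not tested.

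Cabp2 encodes CaBP2, best known from the inner hair cells of the ear, where its loss impairs hearing. Its 1 probe set, 1420597_a_at, read 2.08 and 1 in amacrine cells and 47.3 and 108 in bipolar cells. Both amacrine arrays were at the bottom of the table's range, and the bipolar arrays lay above the array medians. The log2 fold change was -2.34 (SE 0.31, adjusted p = 0.00196, limma), and it was -4.87 with an offset of 1 in place of 16. Among single probe sets with no filter it was not called (adjusted p = 0.0800). The bipolar arrays differed 2.29-fold, a log2 difference larger than for 98.2% of tested genes.

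Cabp1 encodes CaBP1 and its longer form caldendrin, which bind calcium channels and InsP3 receptors, and its probe set 1421255_a_at does not tell the forms apart. It read 62.3 and 24.3 in amacrine cells and 103 and 142 in bipolar cells. The groups did not overlap, but they lay closer than for the other CaBPs. The log2 fold change of -1.28 (adjusted p = 0.0389 in limma, SE 0.33) was the call of the set that was lost most often. It failed under 10 of 15 alternatives, whose adjusted p ranged from 0.00193 to 0.188, and it was not called when all probe sets were tested singly (adjusted p = 0.0683). Leaving out MP amacrine replicate 2 gave -0.81, and leaving out MP amacrine replicate 1 gave -1.76. The value was -1.08 without MP bipolar replicate 2 and -1.49 without MP bipolar replicate 1.

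Since Cabp5 and Cabp2 were both higher in bipolar cells, their RefSeq promoter windows (build GRCm38.p6) were searched for TAATCC on both strands, the core letters bound by the homeodomain factors Otx2 and Crx, chosen after several short motifs had been counted in these windows. Otx2 itself read 1523 and 1646 on the amacrine and 3718 and 3848 on the bipolar arrays. The windows hold the 250 bases before an annotated start site, and there were 12 of them for 7 members. Calb1, Calb2 and Necab1 had no window, so Hpca was the only member called toward amacrine cells that was searched. The Cabp5 window and 1 of the 2 Cabp2 windows held the letters 2 times each, and 1 of 3 Hpca windows held them once. The other windows, those of Cabp1 among them, did not hold them. Over all 32851 windows, 6.25% held at least 1 match and 0.295% at least 2. Because the motif was chosen after counts in the member windows, these shares do not measure how unusual the matches are. The windows with 2 matches are printed 5′ to 3′ along the gene with the matches in capitals (the reverse complement reads GGATTA), together with that of Scgn, which was also higher in bipolar cells and had no match. The windows were chosen for printing after the matches were seen, and a match is a description of letters, not a binding site. The Cabp2 window lies downstream of the other annotated Cabp2 start.
Cabp5 (chr7:13397905-13398154, + strand): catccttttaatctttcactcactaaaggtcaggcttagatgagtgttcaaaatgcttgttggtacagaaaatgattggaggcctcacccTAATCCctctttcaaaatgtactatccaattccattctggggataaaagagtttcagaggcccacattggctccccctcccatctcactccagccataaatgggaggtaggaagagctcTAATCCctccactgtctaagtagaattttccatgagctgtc
Cabp2 (chr19:4083269-4083518, + strand): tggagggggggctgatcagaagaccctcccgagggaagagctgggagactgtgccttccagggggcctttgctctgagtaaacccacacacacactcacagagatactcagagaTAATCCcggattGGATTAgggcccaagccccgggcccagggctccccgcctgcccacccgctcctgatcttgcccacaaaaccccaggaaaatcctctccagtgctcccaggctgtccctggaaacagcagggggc
Scgn (chr13:23991215-23991464, - strand): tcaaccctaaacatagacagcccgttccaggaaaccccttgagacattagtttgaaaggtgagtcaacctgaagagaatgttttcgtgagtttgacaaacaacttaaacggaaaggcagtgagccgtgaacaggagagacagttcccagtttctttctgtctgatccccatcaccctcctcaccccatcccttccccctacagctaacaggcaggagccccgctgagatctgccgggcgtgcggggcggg
In Cabp5 the matches began 160 and 41 bases before the start site, both on the gene's strand. In Cabp2 they began 136 and 124 bases before it, on opposite strands.

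The calbindin family comprises calbindin, calretinin and secretagogin, and its members went different ways. Scgn, the gene of secretagogin, a calcium sensor with a role in secretion, read 143 and 103 in amacrine cells and 1285 and 1398 in bipolar cells on its probe set 1451534_at. The bipolar arrays lay close together, the amacrine arrays differed 1.38-fold, and all were well apart from the other group. The means were 123 ± 27.9 and 1341 ± 80.0 (SD, n = 2), a bipolar to amacrine ratio of 10.9. With a log2 fold change of -3.30 (adjusted p = 8.85e-05 in limma, SE 0.24) it had the lowest adjusted p of the set, and it stayed called under all 16 alternatives of the test by gene, between -3.50 and -2.92.

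Calb2, the gene of calretinin, read 302 and 142 in amacrine cells and 24.8 and 25.5 in bipolar cells on probe set 1451129_at. Both amacrine arrays were above the array median and both bipolar arrays below it. The log2 fold change was 2.45 (SE 0.32, adjusted p = 0.00180, limma) and remained called under all 15 alternatives of the test by gene (adjusted p = 0.0831 among single probe sets with no filter), with 1.94 without MP amacrine replicate 1 and 2.95 without MP amacrine replicate 2. The amacrine arrays differed 2.13-fold, more on the log2 scale than for 96.7% of tested genes. Calretinin marks AII and starburst amacrine cells among others. The 4 AII markers summed to 1549 and 2525 on the amacrine and 890 and 1097 on the bipolar arrays, and 3 of them were called toward amacrine and 1, Gjd2, toward bipolar cells. The 6 starburst markers summed to 333 and 563 against 846 and 892, and of 4 tested none was called toward amacrine cells (1 at an unadjusted p under 0.05, limma) and 2, Megf10 and Fezf1, toward bipolar cells. Within the amacrine arrays both sums were higher on replicate 2, opposite to Calb2. The genes that differed most in that direction were Prox1 (630 and 1522) of the AII list and Sox2 (73.6 and 395) of the starburst list. Both sums therefore rested largely on a single gene. Gjd2 (445 and 372), Megf10 (151 and 31.7) and the dim Fezf1 (5.46 and 3.76) were higher on replicate 1. The part of these cell types in the Calb2 value was not tested.

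Calb1, the gene of calbindin, was the member that differed most between replicates. Probe set 1417504_at read 517 on amacrine replicate 1, 39.5 on amacrine replicate 2, and 19.2 and 17.0 on the bipolar arrays. Only amacrine replicate 1 stood out, 13.1-fold above the other amacrine array. The measured difference of the groups was 2.34 on the log2 scale, but the gene exceeded the median on 1 array only and was not tested, and without the filter it was not called (adjusted p = 0.362, limma). Its 3 other probe sets read between 1.19 and 28.1 on the 4 arrays, below every array median. Calbindin is also a marker of horizontal cells, which carry neurofilaments. The neurofilament genes Nefl (1102 and 87.5) and Nefm (1631 and 136) and the horizontal cell gene Lhx1 (51.2 and 3.79) were higher on amacrine replicate 1 as well, while Onecut1 (48.2 and 54.1) and Onecut2 (191 and 453) were not. Over the whole lists, the 6 horizontal cell markers summed to 961 and 648 on the amacrine and 892 and 858 on the bipolar arrays. The higher sum on amacrine replicate 1 rested on Sept4, at 632 and 112 on the amacrine and 561 and 617 on the bipolar arrays. The 9 ganglion cell markers, Nefl and Nefm among them, summed to 3882 and 1929 against 2814 and 3675. Of that list, Thy1 (806 and 1455) was higher on amacrine replicate 2, and Pou4f1 (157 and 88.8) on amacrine replicate 1. The part of such cells in the Calb1 value was not tested.

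Pvalb encodes parvalbumin, a buffer that in the mouse retina is found in ganglion cells and some amacrine cells. It read 114 and 153 in amacrine cells and 114 and 126 in bipolar cells on probe set 1417653_at. The groups overlapped, and all 4 values were above the array medians. The log2 fold change was 0.12 with a 95% interval from -0.41 to 0.65 (adjusted p = 0.817, limma), an interval that still holds modest differences in either direction.

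The NECABs are neuronal proteins with an EF hand near the amino terminus and a monooxygenase-like domain towards the other end. Necab1 had the largest fold change toward amacrine cells among the tested members. Its probe set 1437156_at read 1253 and 1155 in amacrine cells and 123 and 186 in bipolar cells. The amacrine replicates nearly coincided, and both were far above the bipolar arrays, which were themselves above the array medians. The means were 1204 ± 69.2 and 154 ± 44.4 (SD, n = 2), an amacrine to bipolar ratio of 7.80, and the log2 fold change was 2.86 (adjusted p = 2.32e-04 in limma, SE 0.25). It was called under all alternatives of scaling, filter, offset, test and replicates, and also without MP amacrine replicate 2, at 2.92. A 2nd probe set, 1457142_at, was dim and flat, at 16.7 to 20.3 on the 4 arrays, and the mean of both probe sets gave 1.46 (adjusted p = 0.00275, limma).

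Necab2, whose product binds receptors for adenosine and glutamate in the brain, read 159 and 116 in amacrine cells and 104 and 141 in bipolar cells on probe set 1418881_at. The values of the groups were interleaved. The log2 fold change was 0.15 with a 95% interval from -0.43 to 0.72 (adjusted p = 0.795, limma). The intervals of Necab1 and Necab2 did not meet, although a difference of fold changes between the genes was not tested.

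Hpca encodes hippocalcin, a neuronal calcium sensor that exposes a fatty acid and moves to membranes when it binds calcium. Probe set 1450930_at read 326 and 155 in amacrine cells and 18.9 and 37.6 in bipolar cells. Both bipolar arrays were below the array medians and both amacrine arrays well above them. The log2 fold change was 2.48 (SE 0.36, adjusted p = 0.00272, limma), with 1.98 without MP amacrine replicate 1 and 2.98 without MP amacrine replicate 2. The other Hpca probe set, 1425833_a_at, lay between 2.98 and 13.4 on all arrays and was not tested, and the mean of both probe sets gave 1.38 (adjusted p = 0.0209, limma). Over all alternatives of the test of Hpca by gene the adjusted p (limma) lay between 7.41e-07, with the replicate number as a block, and 0.663, for that dim probe set. It was 0.0560 without the filter. Among single probe sets with no filter, 1450930_at was not called (adjusted p = 0.0998, limma).

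**Figure D2:**
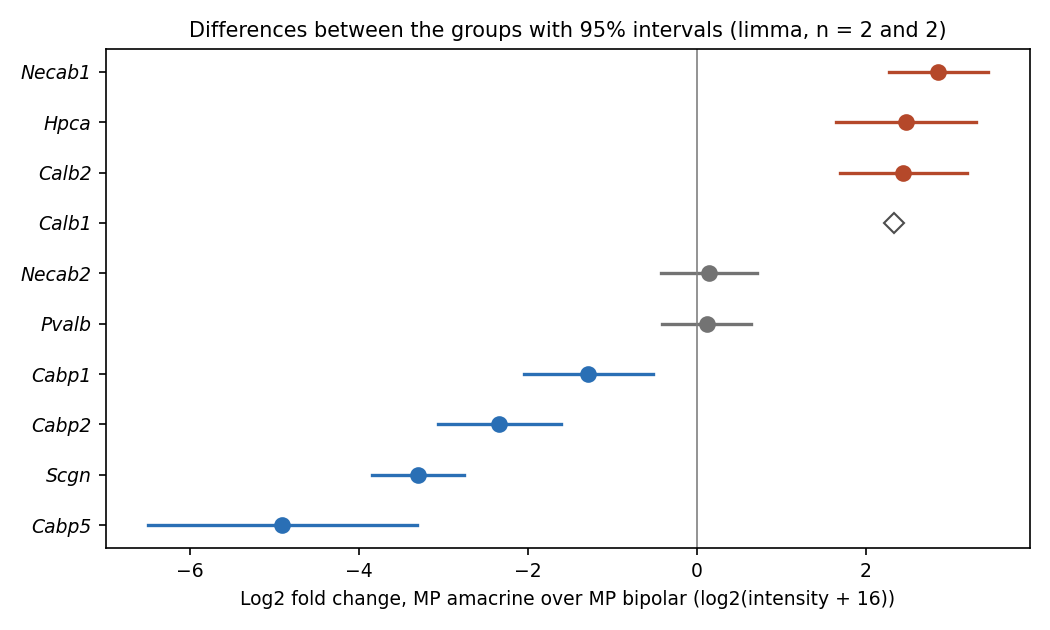
Log2 fold change of each member, MP amacrine over MP bipolar, on the log2(intensity + 16) scale, with 95% intervals from limma (n = 2 per group). Red and blue mark members called as higher in amacrine and bipolar cells, grey those not called, and the open diamond is the measured difference of Calb1, which was not tested. The intervals of Pvalb and Necab2 span 0, and that of Cabp5, from -6.50 to -3.32, is the widest.

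The spread between replicates was uneven across the set. On the brightest probe set, 9 of the 10 genes read higher on amacrine replicate 1 than on amacrine replicate 2, Pvalb being the exception, against 55.8% of all tested genes. Of the 6 other member probe sets, 5 went the other way, but all 6 lay below the array medians on both amacrine arrays. The amacrine arrays differed by a median of 0.25 on the log2 scale over all tested genes, with a 95th percentile of 0.88. Calb1 (3.26), Cabp5 (2.60), Calb2 (1.01), Hpca (1.0) and Cabp1 (0.96) lay beyond that percentile, whereas Necab1 (0.12) lay below the median. So did Cabp2 (0.089), but its amacrine values of 2.08 and 1 are compressed by the offset of 16. Between the bipolar arrays only Cabp2 (0.97) lay beyond the 95th percentile of 0.71. The amacrine array that read lower on these brightest probe sets was also the one with the steeper Gapdh fall from 3-prime to 5-prime, and the part of that in these values was not tested.

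**Figure D3:**
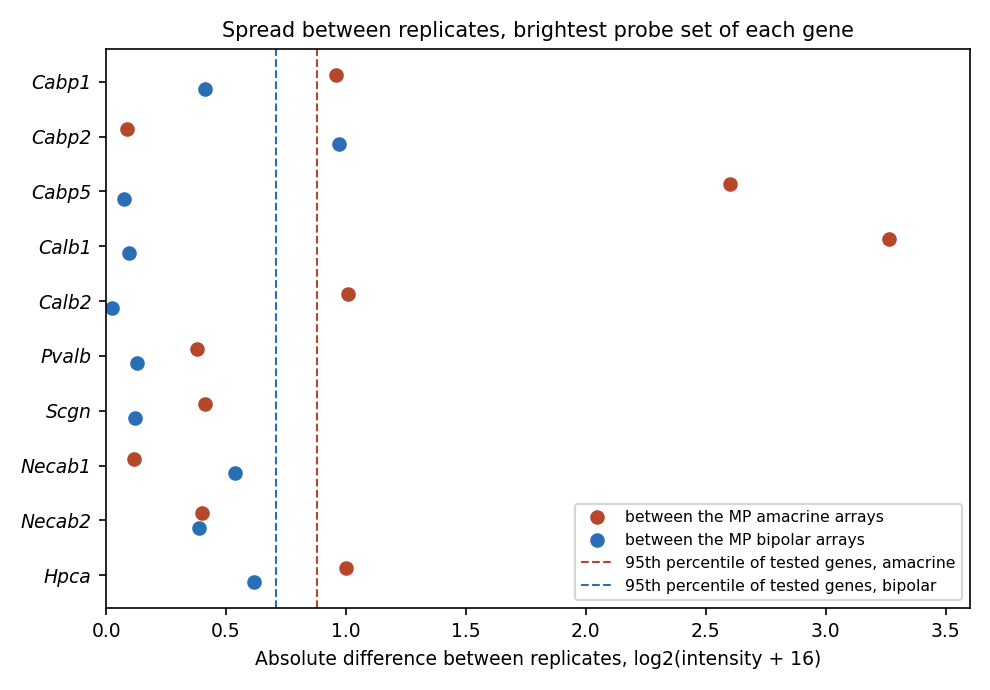
Absolute difference on the log2(intensity + 16) scale between the amacrine replicates (red) and between the bipolar replicates (blue) for the brightest probe set of each member. Dashed lines are the 95th percentiles over 11583 tested genes, 0.88 and 0.71. The red points of Calb1 and Cabp5 lie far to the right, and the blue points all lie left of the blue line except that of Cabp2.

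The genes with the pattern most like those of the outermost members were found by the distance between centred log2 values over the 4 arrays. Closest to Necab1 were Igsf11 (distance 0.10), Atp1b3 (0.11) and Mapk10 (0.15), where the median over all tested genes was 2.94. Their log2 fold changes were 2.85, 2.76 and 2.77. Closest to Cabp5 were Slit1 (0.73), Cacna2d1 (0.94) and Zfp521 (1.05), against a median of 5.21, so no gene followed Cabp5 as closely as some followed Necab1.

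Other genes of the superfamily and of calcium handling were read from lists of 107 genes, of which 97 had a probe set of their own and 77 were tested. Of these, 13 were called as higher in amacrine and 20 as higher in bipolar cells, 42.9% in all. Over all tested genes the share was 13.5%, with 6.54% toward amacrine and 6.92% toward bipolar cells. The calls were uneven by list, with 15 of 24 tested effectors, 6 of 9 channels and 5 of 12 pumps and exchangers. The EF-hand lists had fewer, with 2 of 10, 3 of 13 and 2 of 9 tested genes called. The median log2 fold change of the 77 genes was -0.020, and over all tested genes it was -0.034. Of the genes named below, Caln1, Camkv, Camk2a and Cacna1f passed the filter through the group in which they were high. So did some of the marker genes. Their calls were partly built into that step, and the counts are descriptions only. Among 10 tested neuronal calcium sensors, the family of Hpca, 1 was called in each direction. Vsnl1, the gene of visinin-like protein 1, read 1142 and 1236 in amacrine and 254 and 299 in bipolar cells (log2 fold change 2.05, adjusted p = 5.01e-04, limma). Hpcal4, hippocalcin-like 4, read 100 and 82.4 against 503 and 1043 (-2.79, adjusted p = 0.00121), so close relatives of Hpca were found on both sides. Rcvrn, the gene of the photoreceptor protein recoverin, was not called (-0.58, adjusted p = 0.375).

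Of 13 tested calmodulin and EF-hand relatives, 3 were called, 2 of them toward amacrine cells. Caln1, calneuron 1, which resembles the CaBPs, read 281 and 182 in amacrine and 40.0 and 26.6 in bipolar cells. Its log2 fold change of 2.31 (adjusted p = 9.21e-04, limma) was opposite in direction to Cabp1, Cabp2 and Cabp5. Caln1 passed the filter through its amacrine arrays alone. The others were the centrin gene Cetn2 (0.76) and the calmodulin-like gene Calml4 (-1.37). Cabp4, which acts at photoreceptor terminals, was not called (-0.45, adjusted p = 0.493), nor was Necab3 (-0.020, adjusted p = 0.971). Among 9 tested S100 and secretory-pathway EF-hand genes, Rcn1, the gene of reticulocalbin 1, was higher in amacrine cells (2.44) and Nucb2, nucleobindin 2, in bipolar cells (-1.10), and 9 of the 18 on the array were too dim to test.

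Calcium and calmodulin effectors had 6 of 24 tested genes higher in amacrine and 9 higher in bipolar cells. The calmodulin-stimulated adenylyl cyclases were divided, with Adcy1 (2.54) higher in amacrine and Adcy8 (-3.13) in bipolar cells. Camkv (2.52), Pde1c (2.35), Camk2a (1.14) and Dapk1 (1.0) were the other genes named on the amacrine side. The myosin kinase Mylk (-4.80), Pcp4 (-3.37), which binds calmodulin, and the kinases Camk1d (-2.79) and Camkk2 (-1.61) were on the bipolar side. Pcp4 resembled Cabp5 in its amacrine arrays, at 953 and 288, against 5625 and 5535 in bipolar cells. A 3rd probe set of Mylk gave -0.00049.

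Channels that CaBPs are known to bind, with related release channels, had 3 of 9 tested genes higher in each class. Cacna1d (1.68), Cacna1c (1.29) and Cacna1a (0.92), pore subunits of voltage-gated calcium channels, were higher in amacrine cells, and 1 other Cacna1a probe set above the filter had the opposite sign (-0.24). Cacna1f (-3.09), the pore subunit at ribbon synapses, and the ryanodine receptor genes Ryr3 (-2.41) and Ryr2 (-1.17) were higher in bipolar cells, though another Ryr3 probe set above the filter gave -0.069. Of 12 tested pumps and exchangers, 5 were higher in bipolar cells and none in amacrine cells, where 2 had an unadjusted p under 0.05 and the nearest to a call was Atp2b2, at 0.64 (adjusted p = 0.0796, limma). The 5 were the plasma membrane pumps Atp2b3 (-3.35) and Atp2b1 (-1.78) and the sodium-calcium exchangers Slc8a1 (-1.64), Slc8a3 (-1.40) and Slc24a3 (-0.47).

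**Figure D4:**
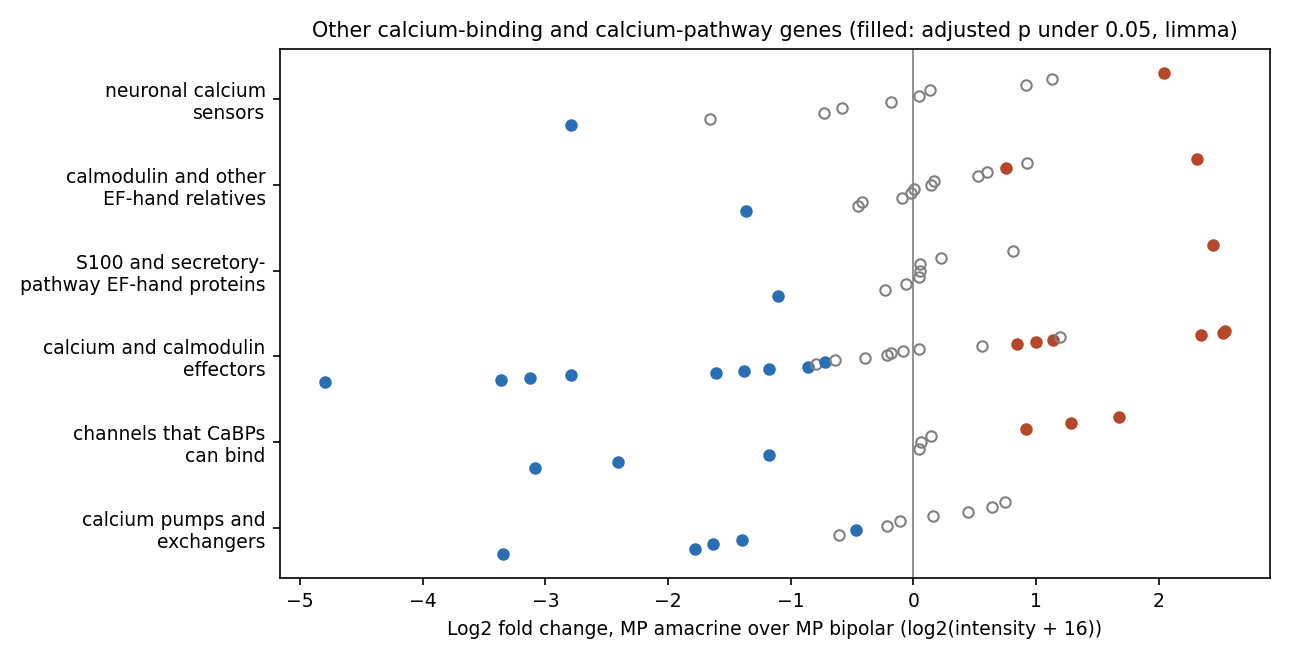
Log2 fold change, MP amacrine over MP bipolar, of the 77 tested genes of the lists of other calcium-binding and calcium-pathway genes. Filled points passed the threshold of 0.05 on the adjusted p (limma), red toward amacrine and blue toward bipolar cells, and open points were not called. Each EF-hand list has called genes on both sides, and the pumps and exchangers have them on the bipolar side.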

How the data were processed

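Affymetrix arrays of 2 MP amacrine and 2 MP bipolar samples were used, grouped by title. Per the labels' protocols, RNA of about 1000 sorted cells was amplified in 2 rounds and labelled with biotin. The deposited table holds 1 linear intensity per probe set and array for 45101 probe sets. The authors' summarisation, background correction and scaling are not given in the sources used here. All intensities were above 0, and there are no detection calls.

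The deposited values were taken to log2(intensity + 16) with no further scaling. The 64 control probe sets were left out. The platform annotation gave exactly 1 gene for 34945 probe sets, and symbols were looked up in RefSeq, where 18032 gene identifiers were found. The probe set with the highest mean stood for a gene, and every member probe set was also tested singly. Genes above the array median on at least 2 arrays were tested with limma 3.58.1 in R 4.3.3 (lmFit, eBayes with an intensity trend, 2 residual degrees of freedom), two-sided, with Benjamini-Hochberg adjustment and a threshold of 0.05. Precision is limited by there being 2 arrays a group. Of the related lists, called genes were named, up to 5 in each direction by absolute log2 fold change, and the few uncalled ones named (Rcvrn, Cabp4, Necab3, Atp2b2) and the marker genes named were chosen after their values were seen. Members and lists were chosen with earlier results of these data known. In 10 runs on simulated data for MP amacrine against MP bipolar, 200 of 11583 genes were changed. The test found 17.8%, 86.6% and 97.7% of genes given a log2 change of 1, 2 and 3, and 4.41% of its calls were false. The data had 1559 called genes, and the simulated noise was averaged over genes of like intensity. These rates therefore need not hold for the members.

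Alternatives were other scalings, filters, offsets of 1 and 64, variance moderation, the mean of the probe sets of a gene, the replicate number as a block and each replicate left out. Array quality weights were added after seeing the data. A lone array left in a group was taken to have the spread of the other group. A few genes of the related lists were not analysed here.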

Additional observations from a re-analysis of the deposited data

How the results depend on the processing

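Of the 7 called members, tested as genes, Scgn, Calb2 and Cabp2 were called under every alternative run, Necab1 under every one but its dim 2nd probe set (0.06), Cabp5 under every one but the omission of the filter, and Hpca under every one but that and its dim probe set (0.27). Cabp1 was called under 5 of 15. Tested as single probe sets without the filter (limma), Cabp2 (adjusted p = 0.0800), Calb2 (adjusted p = 0.0831), Hpca (adjusted p = 0.0998) and the brightest Cabp5 probe set (adjusted p = 0.109) were no longer called. Scgn, Necab1 and the other Cabp5 probe set were still called. Without the filter on dim probe sets, which raised the number of genes tested to 18193, 785 genes, 4 members, 3 member probe sets and 19 related genes were called, against 1559, 7, 7 and 33. Under a filter set at the 75th percentile only 3 members and 4 of their probe sets were left to test, and all were called (3 members, 4 probe sets). With each replicate left out in turn, 917 to 1939 genes, 6 to 7 members, 6 to 8 member probe sets and 22 to 32 related genes were called, and the 917 genes were those without MP bipolar replicate 2. Values that turned in sign belonged to members that were not called. They were Pvalb, at -0.069 to 0.31 with each replicate left out (lowest without MP amacrine replicate 2), Necab2, at -0.054 to 0.35 (lowest without MP amacrine replicate 1, and -0.048 without MP bipolar replicate 1), and the Calb1 probe set 1448738_at (-0.25), and the cause was not tested. Arrays with the same replicate number did not deviate together (correlation of deviations -0.04 across genes). With 2 replicates a group, this correlation cannot show whether the samples were paired, and the main test assumed no pairing. With the replicate block 1932 genes, the same number of members (7), 8 member probe sets and 40 related genes were called. Scaling moved the median log2 fold change of all genes to between -0.052 and 0.0064.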
